A study of Mus musculus with 4 samples.

Results

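Expression of 8 genes of the lymphoid-organizing chemokine system was followed through the lung and synovium of arthritic mice: the ligands Cxcl13, Ccl19, Ccl21a and Cxcl12, the receptors Cxcr5, Ccr7 and Cxcr4, and the atypical receptor Ackr3. They were chosen by symbol from the gene list of the deposited matrices, and all 8 of 8 symbols were found among 32245 symbols (32285 listed genes). The list holds 62 chemokine and chemokine receptor genes in all. Single-cell suspensions were profiled by droplet 3′ RNA sequencing, which counts unique molecular identifiers (UMIs), 1 for each captured RNA molecule.

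TNF+ mice carried a human TNF transgene (TNF-Tg) on the C57BL/6 background and develop inflammatory arthritis with pulmonary disease. TNF- mice were their littermates without the transgene. All mice were female and 4 months old. The tissue of 3 to 5 mice per genotype was pooled for lung, and that of 5 to 10 mice for synovium. There were therefore 4 libraries, 1 for each genotype in each tissue. No difference below has a replicate check, no test was possible, and every 95% interval covers counting error only. The human transgene has 0 rows in the gene list, so its expression could not be checked.

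Lymphoid organs are laid out by homeostatic chemokines. CXCL13 draws CXCR5+ B cells and follicular helper T cells into follicles, whereas CCL19 and CCL21 draw CCR7+ naive T cells and mature dendritic cells into the T cell zone and, from lymphatic vessels, into draining nodes. CXCL12 retains CXCR4+ leukocytes and precursors in tissue, and ACKR3 (formerly CXCR7) binds and scavenges CXCL12. The same chemokines appear in tertiary lymphoid tissue of inflamed joints and lungs.

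Kept cells numbered 6998 (TNF-) and 9174 (TNF+) for lung, and 6200 (TNF-) and 3152 (TNF+) for synovium, with medians of 7137 to 12492 UMIs per cell. Cells were grouped into lineages by clustering, without the 8 genes among the clustering genes, and each lineage name stands for cells like that lineage. Named clusters carried 5 to 19 of the markers of their lineage in the synovium and 7 to 22 in the lung. The synovial libraries also held 559 TNF- and 22 TNF+ muscle cells and 3 TNF- and 180 TNF+ epithelial cells. In 12 clusters of each tissue, over 90% of cells came from 1 library, so such a cluster may be that library and not a cell type. Pairs of libraries shared 5 to 21 barcodes. Barcodes over the limit of 20% mitochondrial UMIs made up 17.6% of the TNF+ synovium and 1.41% to 3.78% of the other libraries.

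The make-up of the libraries differed. Macrophages or monocytes were 221 of 6200 TNF- synovial cells and 1105 of 3152 TNF+ ones, while fibroblasts were 3345 and 459. In the lung, macrophages or monocytes numbered 635 of 6998 TNF- and 4410 of 9174 TNF+ cells, and blood endothelial cells 2254 and 395. Values for a whole tissue sum all of its cells, and in them fewer cells of a type and less RNA per cell cannot be told apart.

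All positions are on GRCm38 (GENCODE vM21). Cxcl13 (ENSMUSG00000023078) lies on chromosome 5 at 95956951 to 95961068, and Cxcl12 (ENSMUSG00000061353) on chromosome 6 at 117168535 to 117181367. Ccl19 (ENSMUSG00000071005) and Ccl21a (ENSMUSG00000094686) are neighbours on chromosome 4, at 42754525 to 42756577 and 42772860 to 42773993. Cxcr5 (ENSMUSG00000047880) spans 44511787 to 44561877 of chromosome 9, and Ccr7 (ENSMUSG00000037944) spans 99144196 to 99155077 of chromosome 11. Cxcr4 (ENSMUSG00000045382) and Ackr3 (ENSMUSG00000044337) are both on chromosome 1, at 128588199 to 128592293 and 90203980 to 90216751. Reads of introns were counted with those of exons. Symbols shared with an unplaced scaffold were summed; the scaffold rows of Ccl19 held 0 UMIs and that of Ccl21a at most 1. The copies Ccl21b and Ccl21c held at most 1 UMI in any library, so near-identical copies could not be told apart from Ccl21a. The gene 4930578G10Rik spans Ccl19 and Ccl21a on the opposite strand.

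The 250 bases before the RefSeq start of a gene (GRCm38.p6) were available for 6 of the 8 members, not for Cxcr5 and Ccr7. Those of 3 ligands are shown, 1 held chiefly by macrophages or fibroblasts (Cxcl13), 1 by vessels and stroma (Cxcl12) and 1 by lymphatic cells (Ccl21a). Each runs 5′ to 3′ on the gene's own strand, and capitals mark matches on either strand to a kappaB-type motif (GGGNNNNNCC) or to the TATA box (TATAAA). The Cxcl13 bases are chr5:95956689-95956938 (+), the Cxcl12 bases chr6:117168285-117168534 (+), and the Ccl21a bases chr4:42773994-42774241 (-), 248 in number after 2 exonic bases were left out.
Cxcl13: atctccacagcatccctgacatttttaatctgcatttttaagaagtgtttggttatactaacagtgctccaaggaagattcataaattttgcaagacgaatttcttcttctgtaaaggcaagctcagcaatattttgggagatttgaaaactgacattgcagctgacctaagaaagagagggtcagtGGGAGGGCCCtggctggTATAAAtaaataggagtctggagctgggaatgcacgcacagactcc
Cxcl12: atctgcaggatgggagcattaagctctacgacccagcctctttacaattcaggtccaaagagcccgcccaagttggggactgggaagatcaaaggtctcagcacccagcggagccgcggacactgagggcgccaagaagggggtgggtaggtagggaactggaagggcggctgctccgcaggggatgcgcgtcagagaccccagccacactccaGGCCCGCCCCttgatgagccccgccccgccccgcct
Ccl21a: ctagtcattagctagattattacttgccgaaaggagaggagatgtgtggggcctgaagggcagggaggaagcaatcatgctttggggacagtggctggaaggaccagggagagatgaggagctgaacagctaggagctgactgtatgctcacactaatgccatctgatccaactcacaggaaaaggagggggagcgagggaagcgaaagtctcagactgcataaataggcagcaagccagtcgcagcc
The Cxcl13 stretch held a kappaB-type match at base 188 and a TATA match at base 205, counted from 1 at its 5′ end, and the Cxcl12 stretch a kappaB-type match at base 215. The Ccl21a stretch held neither. Of 32851 mouse promoters of this length, 45.8% held the kappaB-type motif and 12.4% the TATA box, so a match is a description and marks no site.

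Over whole tissues, the members moved in different directions in the 2 organs. All 8 members reached 20 UMIs over the pair of libraries, and 3 lay at least 2-fold higher in the TNF+ synovium (Ccl19, Ccl21a and Cxcr4) and 1 lay at least 2-fold lower (Ackr3). Of 19248 genes measured there, 11.8% were higher and 21.9% lower by this rule. In the TNF+ lung, 1 of 8 was higher (Cxcl13) and 5 were lower (Ackr3, Ccl19, Ccl21a, Ccr7 and Cxcl12), against 5.79% higher and 25.5% lower of 19504 genes. The median log2 ratio of TNF+ over TNF- was 0.73 over the members and -0.17 over all genes in the synovium. In the lung these medians were -1.05 and -0.32. Among all chemokine and receptor genes, 18 of 56 were higher and 8 lower in the synovium, and 19 of 55 higher and 16 lower in the lung.

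**Figure D1:**
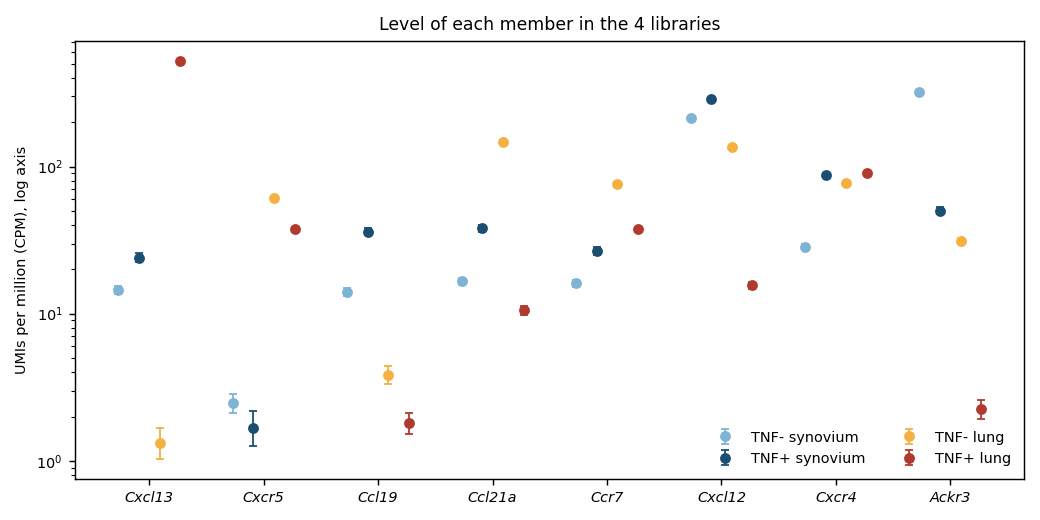
Level of each member in the 4 libraries, as counts per 1000000 UMIs of all genes (CPM) on a log axis; points are the libraries and bars the exact Poisson 95% intervals, counting error only. Cxcl13 stands at 1.32 CPM for TNF- lung and 520.3 CPM for TNF+ lung, and Ackr3 is lower in both TNF+ libraries.

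Within lineages the picture differed from that of the whole tissues. In all, 7 synovial and 12 lung lineages had at least 50 cells in each library. Over synovial lineages, 28 pairs of a member and a lineage reached 20 UMIs, of which 9 were at least 2-fold higher and 10 lower in TNF+ cells. The same rule gave 7.75% higher and 16.8% lower of 75931 pairs of any gene and a lineage. Over lung lineages, 18 of 54 pairs were higher and 12 lower, against 7.25% higher and 9.5% lower of 123888 pairs. Cxcl13 alone made up 12 of the 18 higher pairs, and without it 6 of 42 were higher and 12 lower.

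**Figure D2:**
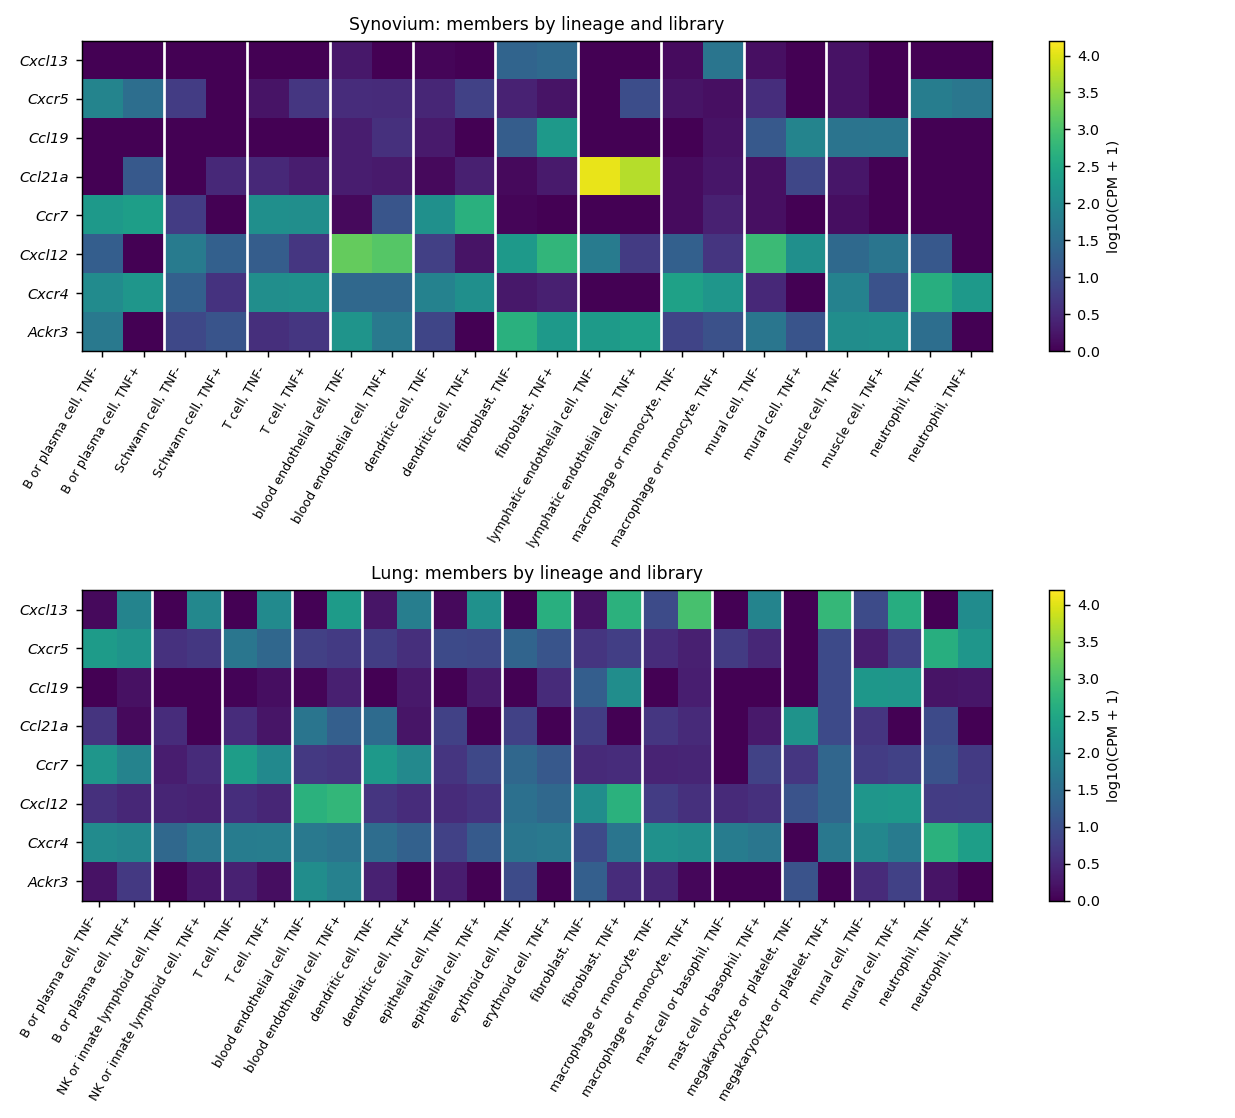
Level of the 8 members (rows) by lineage and library (columns), coloured by log10(CPM + 1), for lineages with at least 15 cells in each library; lung lymphatic endothelial cells, 4 in the TNF+ library, are therefore not drawn. Ccl21a is high in synovial lymphatic endothelial cells, Cxcl12 in blood endothelial cells, and Cxcl13 is seen in every column of the TNF+ lung.

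Cxcl13, the B cell follicle chemokine, was near 0 in the TNF- lung and high in a few kept cells of the TNF+ lung. The TNF- lung held 71 Cxcl13 UMIs (1.32 CPM, 95% interval 1.03 to 1.66) and the TNF+ lung 43914 (520.3 CPM, 515 to 525), a log2 ratio of 8.62 (8.29 to 8.98). Macrophages or monocytes held 39583 of the UMIs of the TNF+ lung (90.1%), at 951 CPM and 8.98 UMIs per cell, and 56 of those of the TNF- lung, at 8.09 CPM. They were thus the main source in both libraries.

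Most of the Cxcl13 of kept cells came from 1 macrophage cluster, led by St18, Cxcl13 itself and the complement gene C1qc. Its 237 TNF+ cells held 32287 UMIs, 73.5% of those in the library's kept cells, at 9899 CPM and 136 UMIs per cell. Of these cells 60.3% (53.8 to 66.6) had 10 or more Cxcl13 UMIs, with a median of 36 and a maximum of 865. The same cluster held 64 TNF- cells with 44 UMIs in all, of which 3.13% (0.381 to 10.8) had 10 or more. A second macrophage cluster, led by Spp1, Marco and Krt79, held 4348 UMIs in 879 TNF+ cells, of which 7.39% had 10 or more. Of the 9174 cells of the TNF+ lung, 49 (0.534%) held 50% of the Cxcl13 UMIs. Among kept cells Cxcl13 was thus carried by few cells of the macrophage lineage.

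A low level of Cxcl13 was present in every other lineage of the TNF+ lung. Of these, 10 held between 0.695 and 0.954 UMIs per cell and had a UMI in 42.2% to 54.8% of cells, although their median depth ran from 642 to 15701 UMIs. Fibroblasts held 1.75 UMIs per cell and erythroid cells 2.57, of which 1 cell held 142 UMIs. T cells held 0.954 UMIs per cell, B or plasma cells 0.845 and blood endothelial cells 0.727. In the TNF- lung these lineages held 0 to 7 UMIs each. After each cell was thinned to 1000 UMIs, 11.7% of 1574 TNF+ B or plasma cells, 9.25% of 1481 T cells and 22.6% of 53 erythroid cells still had a Cxcl13 UMI, against 15.5% of 3839 macrophages or monocytes. The median depths of these lineages were 7865, 9234, 2084 and 9057 UMIs. The shares of B or plasma cells, T cells and also macrophages or monocytes lay below that of erythroid cells, which should lack the gene. A cell of lower depth keeps a larger part of its UMIs at thinning, so these shares cannot tell expression from background. No expression by the B or plasma and T cells is read from them, and the source of these UMIs was not tested. All 12 lung lineages passed 2-fold for Cxcl13, with log2 ratios from 5.67 (4.56 to 7.04) in mural cells to 11.40 (8.91 to 16.7) in blood endothelial cells, and this low level is part of each. Of all pairs of a gene and a lung lineage, 7.25% were higher.

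The limit of 5000 genes per cell removed much of the Cxcl13. Barcodes removed from the TNF+ lung held 85736 of its 129650 Cxcl13 UMIs (66.1%), at 1198 CPM. Of these, 83573 (97.5%) were in barcodes whose nearest kept cells were macrophages or monocytes. The shares by lineage, cluster and cell above are therefore those of kept cells only. With every deposited barcode the log2 ratio was 8.95.

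**Figure D3:**
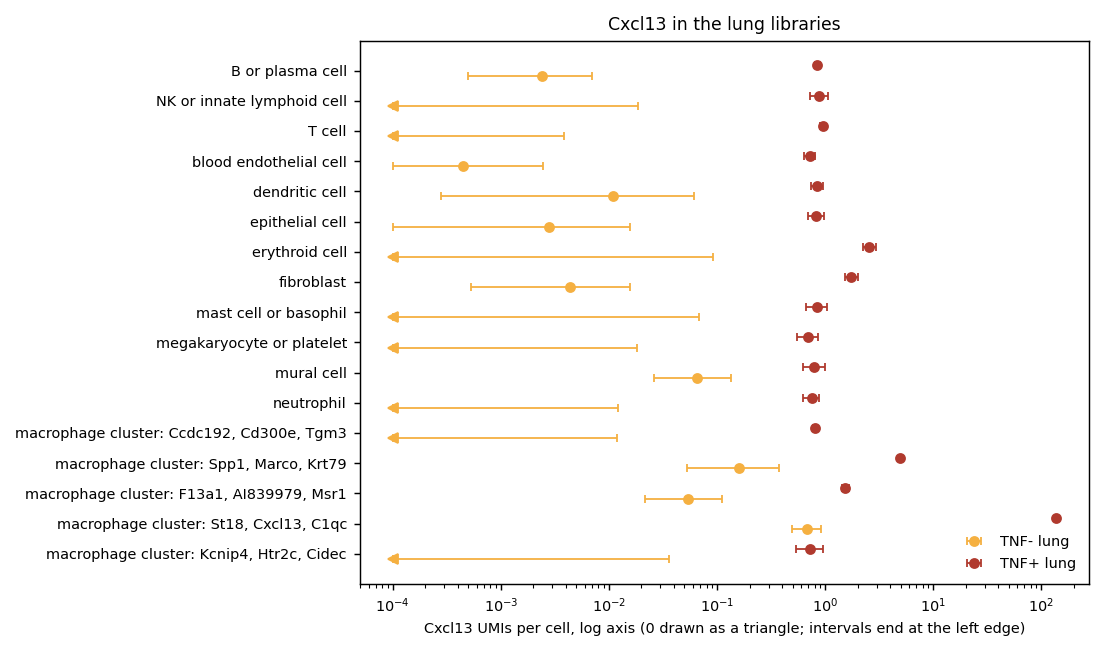
Cxcl13 UMIs per cell (log axis) in lung lineages with at least 50 TNF+ cells and, at the bottom, in the macrophage clusters; points are the summed libraries, bars exact Poisson 95% intervals, and triangles at the left edge mark 0 UMIs. The St18 cluster stands at 136 UMIs per TNF+ cell, while the T cells of that library stand at 0.954.

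In the synovium the lineage with most Cxcl13 was a different one in each library. The whole-tissue level was 14.4 CPM (13.6 to 15.3) in TNF- and 24.0 CPM (22.4 to 25.8) in TNF+, a log2 ratio of 0.74 (0.60 to 0.87). Fibroblasts held 1091 of the 1100 TNF- UMIs (99.2%), chiefly a cluster led by Mrgprg, Sv2c and Smpd3 (677 UMIs, 55.5 CPM) and one led by Gdf10 (390 UMIs, 30.3 CPM). In the TNF+ synovium macrophages or monocytes held 637 of 794 UMIs (80.2%), at 42.4 CPM against 0.347 CPM (1 UMI) in TNF-, a log2 ratio of 6.93 (4.45 to 12.2). Fibroblasts as a whole were at 21.8 and 26.0 CPM, from different clusters. No TNF+ cell of the Gdf10 cluster, 74 in number, had more than 2 Cxcl13 UMIs, while the highest of its 828 TNF- cells had 81. The TNF+ UMIs of fibroblasts were in a cluster led by Mmp13 (127 UMIs in 233 cells, 33.4 CPM), in 18 cells of the Mrgprg cluster (23 UMIs, 145 CPM) and in few others. As few as 3 cells held 50% of the TNF+ synovial UMIs, the highest with 194, so the macrophage level rests on few cells. Among 32 TNF+ cells of a macrophage cluster led by Ccl12, Ccl24 and Cd209f, the level was 455 CPM.

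Ccl19, a ligand of CCR7 made by stromal cells of the T cell zone, was higher in TNF+ synovial stroma. Over the whole synovium it was at 14.1 CPM (13.3 to 14.9) in TNF- and 36.1 CPM (34.1 to 38.2) in TNF+, a log2 ratio of 1.36 (1.24 to 1.48). Synovial fibroblasts were at 16.5 CPM in TNF- against 188 CPM in TNF+, a log2 ratio of 3.51 (3.38 to 3.64). A cluster led by Mmp13, Saa3 and Cxcl5 held 1036 of the 1194 TNF+ UMIs at 273 CPM, and this cluster had 233 TNF+ cells and 2 TNF- cells. Ccl19 was thus high in fibroblasts of a kind almost unseen in the TNF- library. The Gdf10 fibroblast cluster, present in both, was at 37.4 CPM in TNF- against 43.4 CPM in TNF+. Mural cells, which wrap small vessels, were at 13.8 and 79.0 CPM, a log2 ratio of 2.51 (1.85 to 3.21). The kinds of mural cell differed between the libraries: a cluster led by Abcc9, Kcnj8 and Higd1b had 234 TNF- and 39 TNF+ cells, and one led by Myh11, Pln and Acta2 had 59 and 87. The former held 22 and 67 Ccl19 UMIs, at 374 CPM in TNF+, and the latter 5 and 2 UMIs. The TNF- synovium also had 199 Ccl19 UMIs in muscle cells, at 40.9 CPM.

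In the lung Ccl19 was sparse, and the direction of its whole-tissue difference depended on the processing. There were 206 UMIs in the TNF- and 152 in the TNF+ library, 3.83 CPM (3.32 to 4.39) against 1.80 CPM (1.53 to 2.11), a log2 ratio of -1.09 (-1.40 to -0.78). With every deposited barcode the ratio was 0.50, with high doublet scores removed 0.79, and with each cell weighted equally 0.48. Mural cells held 69.4% of the TNF- UMIs and were at 167 CPM in TNF- against 159 CPM in TNF+, a log2 ratio of -0.07 (-0.70 to 0.51). Fibroblasts were at 16.9 and 114 CPM, a log2 ratio of 2.75 (2.15 to 3.34), in 457 TNF- and 116 TNF+ cells. Within its stromal lineages taken whole, Ccl19 showed no difference detectable at this depth in mural cells and was higher in TNF+ fibroblasts. These lineages held different clusters in each library. A mural cluster led by Pcdh18 had 21 TNF- and 87 TNF+ cells, and one led by Actc1 and Acta2 had 86 and 9. A fibroblast cluster led by Igfbp6 had 219 TNF- and 90 TNF+ cells, and one led by C7 had 144 and 22. The part of this make-up in the ratios was not tested. TNF+ macrophages or monocytes held 52 UMIs against 0, at least 2.88-fold higher over a floor of 3 UMIs, at a level of 1.25 CPM.

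Ccl21a, the CCR7 ligand of lymphatic vessels and high endothelial venules, was held almost wholly by lymphatic endothelial cells, and few such cells were captured. Lymphatic cells held 97.1% of the TNF- synovial UMIs (1227 in 17 cells), 95.3% of the TNF+ synovial UMIs (1201 in 24 cells), 90.1% of the TNF- lung UMIs (7173 in 35 cells) and 84.6% of the TNF+ lung UMIs (753 in 4 cells). Their level was 72.2 and 50.04 UMIs per cell in TNF- and TNF+ synovium, and 205 and 188 in TNF- and TNF+ lung. As CPM the synovial cells were at 11435 and 5356, and the lung cells at 23390 and 14117. These are means over lymphatic cells, of which 16 of 17 TNF- and 20 of 24 TNF+ synovial cells had a Ccl21a UMI. They leave out 13 TNF+ synovial barcodes nearest to lymphatic cells that the cell limits removed. Those held 6771 UMIs, more than the 24 kept cells, so no direction is read from the synovial means. In the lung such removed barcodes were 8 in TNF- with 5114 UMIs and 1 in TNF+ with 498, so no direction is read from the lung means either.

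Whole-tissue Ccl21a moved apart in the 2 organs. It was at 16.6 CPM (15.7 to 17.5) in TNF- and 38.1 CPM (36.1 to 40.3) in TNF+ synovium, a log2 ratio of 1.20 (1.09 to 1.31), and at 148 CPM (145 to 151) and 10.5 CPM (9.86 to 11.3) in the lung, a ratio of -3.81 (-3.91 to -3.71). These values turn on the number of lymphatic cells kept: 50% of the UMIs lay in 3 TNF- and 4 TNF+ synovial cells, and in 11 TNF- and 2 TNF+ lung cells. Barcodes removed by the cell limits held 6820 further UMIs in the TNF+ synovium, of which 99.3% were in those 13 barcodes, and with every barcode the synovial ratio was 3.26 and the lung ratio -3.95. With high doublet scores removed, the lung ratio was 0.83. Outside the lymphatics, 17 shallow TNF- lung cells of a blood endothelial cluster led by Prnd held 511 UMIs. The 5 lung lineages at least 2-fold lower in TNF+ (B or plasma, T, blood endothelial, dendritic and megakaryocyte) were at 2.39 to 143.8 CPM in the TNF- library, all far below the lymphatic level. In all 6 lung lineages were measured for Ccl21a, and 9.5% of all pairs of a gene and a lung lineage were lower.

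Cxcl12, the retention signal of vessels and stroma, was held by several lineages of both tissues. In the synovium blood endothelial cells were highest, at 1601 CPM (1559 to 1645) in TNF- and 1234 CPM (1199 to 1269) in TNF+, a log2 ratio of -0.38 (-0.43 to -0.32). Fibroblasts were at 179 CPM (175 to 183) and 587 CPM (567 to 607), a log2 ratio of 1.71 (1.65 to 1.77). The Mmp13, Saa3 and Cxcl5 fibroblast cluster was at 822 CPM and held 3122 of the 3427 UMIs of TNF+ fibroblasts. The fibroblast difference was therefore that of a cluster found nearly wholly in the TNF+ library, and without clusters of 1 library the ratio was -0.33.

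Other synovial lineages had less Cxcl12 in the TNF+ library. Mural cells were at 733 CPM (696 to 772) in TNF- and 125 CPM (102 to 150) in TNF+, a log2 ratio of -2.55 (-2.85 to -2.27). The Abcc9 mural cluster, fewer in TNF+, was at 1046 CPM against 363 CPM and the Myh11 cluster at 118 CPM against 63.3 CPM. Macrophages or monocytes were at 18.1 and 3.53 CPM (-2.36, -2.93 to -1.77), and T cells at 16.2 and 3.53 CPM from 24 and 3 UMIs. Schwann cells were at 55.9 and 18.6 CPM, and dendritic cells had 37 and 1 UMIs. Of 7 lineages, 5 were at least 2-fold lower and 1 higher, against 16.8% and 7.75% of all pairs of a gene and a synovial lineage. Macrophages or monocytes, T cells, Schwann cells and dendritic cells all lay below the 214 CPM of the whole TNF- synovium. No background share was measured for them, so their values are given as levels only and not read as expression by these lineages. An unnamed cluster led by Rgs5, Gabrr1 and Kcnj8, with 66 TNF+ cells and 1 TNF- cell, was at 1108 CPM. Over the whole synovium Cxcl12 was at 214 CPM (210 to 217) in TNF- and 288 CPM (282 to 294) in TNF+, a log2 ratio of 0.43 (0.40 to 0.47).

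In the lung Cxcl12 was lower over the whole tissue but not within the lineages that held it. The library level was 135 CPM (132 to 138) in TNF- and 15.6 CPM (14.7 to 16.4) in TNF+, a log2 ratio of -3.12 (-3.20 to -3.03). Blood endothelial cells held 91.2% of the TNF- and 65.8% of the TNF+ UMIs and were at 484 CPM (473 to 496) and 596 CPM (557 to 637), a log2 ratio of 0.30 (0.19 to 0.40). These cells made up 2254 TNF- and 395 TNF+ cells, from different clusters: the Glp1r, Tek and Bmp6 cluster had 1402 TNF- and 5 TNF+ cells, and the Prnd, Gm46565 and Far2 cluster 4 TNF- and 90 TNF+ cells. Fibroblasts were at 114 and 484 CPM, a log2 ratio of 2.08 (1.82 to 2.33), and mural cells at 161 and 176 CPM, a ratio of 0.12 (-0.48 to 0.69). TNF+ lung endothelial cells and fibroblasts had median depths of 774 and 1039.5 UMIs, and their TNF- counterparts of 5508.5 and 5949. Fibroblast and mural clusters also differed between the libraries, as given for Ccl19. The parts of this depth and of this make-up in the ratios were not tested.

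**Figure D4:**
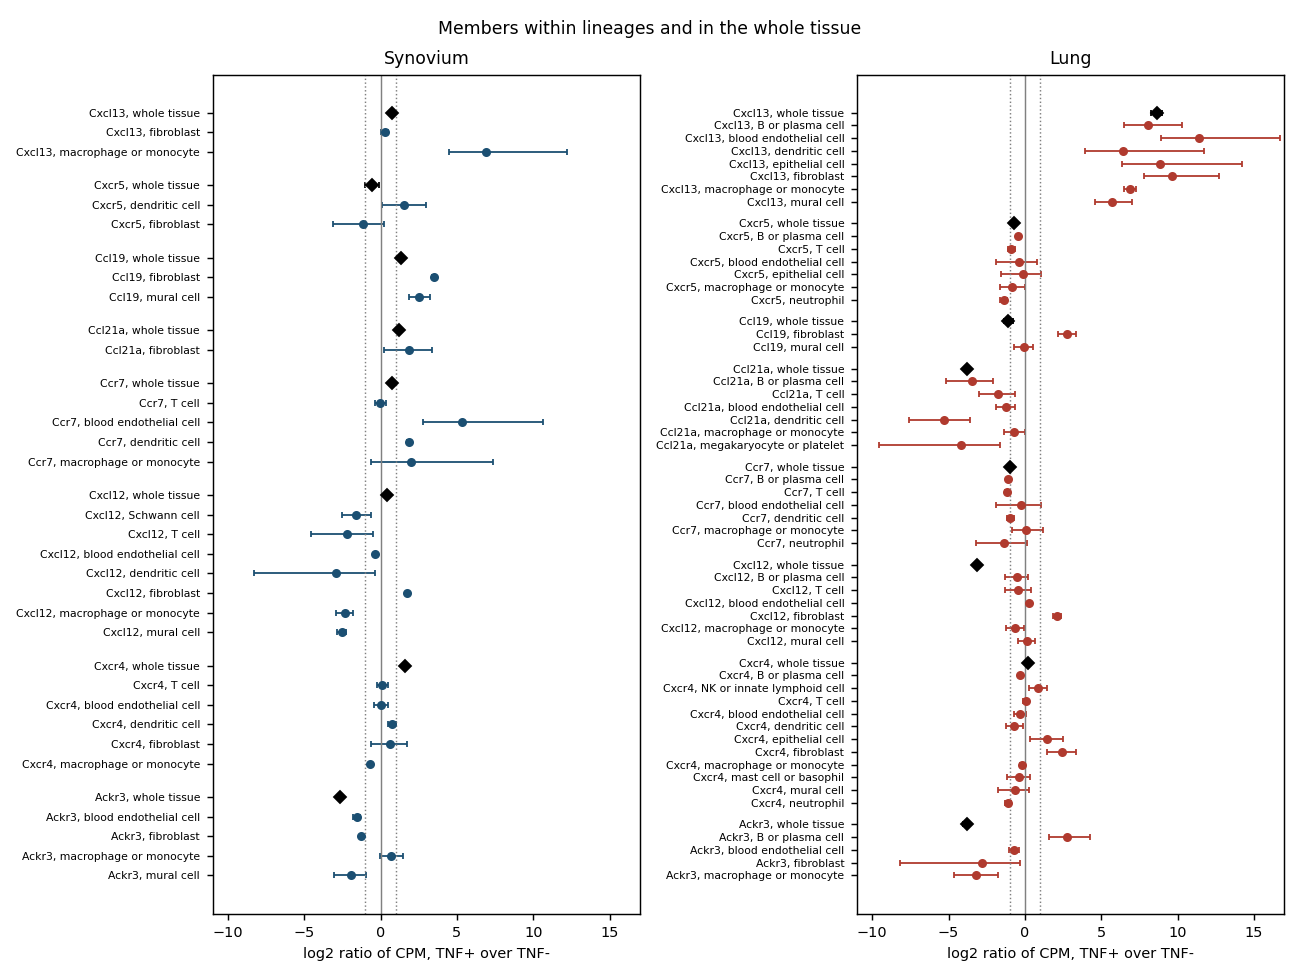
Log2 ratio of TNF+ over TNF- for each member in the whole tissue and in each lineage with at least 20 UMIs, synovium left and lung right; points are ratios of CPM, bars 95% counting intervals, and genes at 0 UMIs in 1 library are not drawn. Lung Cxcl12 lies at -3.12 in the whole tissue but at 0.30 in blood endothelial cells.

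Cxcr5, the CXCL13 receptor of B cells and follicular helper T cells, was mainly a lung B cell gene. Over the whole lung it was at 60.8 CPM (58.7 to 62.9) in TNF- and 37.4 CPM (36.1 to 38.7) in TNF+, a log2 ratio of -0.70 (-0.77 to -0.63). B or plasma cells held 61.2% and 79.5% of the UMIs and were at 199 and 147 CPM, a ratio of -0.44 (-0.52 to -0.35). The B cell cluster led by Pax5 was at 213 CPM in 1233 TNF- cells and 221 CPM in 1404 TNF+ cells, whereas the plasma cell cluster, led by Iglv1 and Jchain, had 22 and 149 cells. The level in B cells thus differed little, and plasma cells made up more of the TNF+ lineage.

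Neutrophils of the TNF- lung had the highest Cxcr5 level of any lineage with 50 cells. Neutrophils were at 426 CPM (394 to 460) in TNF- and 161 CPM (140 to 186) in TNF+, a log2 ratio of -1.40 (-1.64 to -1.17), from 303 and 180 cells. After thinning to 1000 UMIs, 25.8% (20.9 to 31.2) of 295 TNF- and 16.9% (11.6 to 23.3) of TNF+ neutrophils had a UMI, against 0% of 619 TNF- macrophages or monocytes, which allows a share of cells with a UMI at that depth of up to 0.485%. Without thinning, 51.5% of the TNF- neutrophils and 1.89% of these macrophages or monocytes had a UMI, at median depths of 4448 and 10219 UMIs. The exons of Cxcr5 cover 6.65% of its 50091 bases, and Bcl9l overlaps it by 110 bases on the opposite strand, so the source of these UMIs within the gene could not be seen. T cells were at 44.3 and 23.9 CPM, a ratio of -0.89 (-1.10 to -0.68). The synovium held few: 188 UMIs in TNF- and 55 in TNF+, of which B or plasma cells held 60 (78.5 CPM, 62 cells) and 7 (32.4 CPM, 35 cells).

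Ccr7, which guides naive lymphocytes and mature dendritic cells towards CCL19 and CCL21, was lower in TNF+ lung lymphocytes. Over the whole lung it was at 75.7 CPM (73.4 to 78.0) in TNF- and 37.6 CPM (36.3 to 39.0) in TNF+, a log2 ratio of -1.01 (-1.08 to -0.94). T cells were at 219 CPM (210 to 229) and 97.3 CPM (92.3 to 103), a ratio of -1.17 (-1.27 to -1.07). B or plasma cells were at 161 and 75.8 CPM, a ratio of -1.09 (-1.20 to -0.99). The Pax5 B cell cluster was at 173 CPM against 114 CPM, and the plasma cell cluster, with 22 TNF- and 149 TNF+ cells, held 1 and 3 UMIs. After thinning, 19.2% (16.8 to 21.8) of TNF- and 9.12% (7.70 to 10.7) of TNF+ T cells had a Ccr7 UMI, with median depths of 9271 and 9234 UMIs.

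The T cell difference went with the kinds of T cell captured. A cluster led by Dapl1 and Lef1, a gene of naive T cells, had 620 TNF- and 405 TNF+ cells at 312 and 267 CPM. A cluster led by Ccr4 and Foxp3, the regulator of regulatory T cells, had 194 TNF- and 800 TNF+ cells at 77.0 and 23.4 CPM. The level was lower in TNF+ cells of both clusters, and more TNF+ cells lay in the cluster of low level. Lung dendritic cells were at 182 and 92.9 CPM, a log2 ratio of -0.97 (-1.20 to -0.73). Of the 91 TNF- and 302 TNF+ cells of this lineage, a pair of sub-clusters named for macrophage markers held 4 and 6 TNF- and 66 and 53 TNF+ cells. Among dendritic cells the mature type, which had 12 of 12 markers of mature dendritic cells, was at 1109 CPM in 11 TNF- cells and 714 CPM in 23 TNF+ cells.

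In the synovium Ccr7 was held chiefly by dendritic cells. They were at 127 CPM (119 to 136) in TNF- and 459 CPM (425 to 496) in TNF+, a log2 ratio of 1.85 (1.71 to 2.001), from 376 and 92 cells. Mature dendritic cells were at 3695 CPM in 6 TNF- cells and 2342 CPM in 9 TNF+ cells, and held 505 of 884 and 392 of 666 Ccr7 UMIs. A further 258 of the TNF+ UMIs were in 42 cells of a sub-cluster that had more neutrophil than dendritic cell markers. Mature cells were 6 of 376 TNF- and 9 of 92 TNF+ cells of the lineage, too few to compare their levels. The part of each kind of cell in the ratio of the lineage was not tested. T cells were at 121 and 120 CPM, a ratio of -0.01 (-0.37 to 0.35). Blood endothelial cells had 46 UMIs in TNF+ and 1 in TNF-, of which 1 cell held 45. With high doublet scores removed their log2 ratio was -0.30.

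Cxcr5 and Ccr7 were detected together in a smaller share of TNF+ lymphocytes in the lung. In the lung 39.8% of TNF- and 29.1% of TNF+ B or plasma cells had a UMI of both, and 20.1% and 6.93% of T cells did. These shares were not thinned, and the median depth of B or plasma cells was 7223 UMIs in TNF- and 7865 in TNF+. Detection of Ccr7 differed more than that of Cxcr5 in B or plasma cells, at 59.9% and 41.8% against 61.3% and 59.9%.

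**Figure D5:**
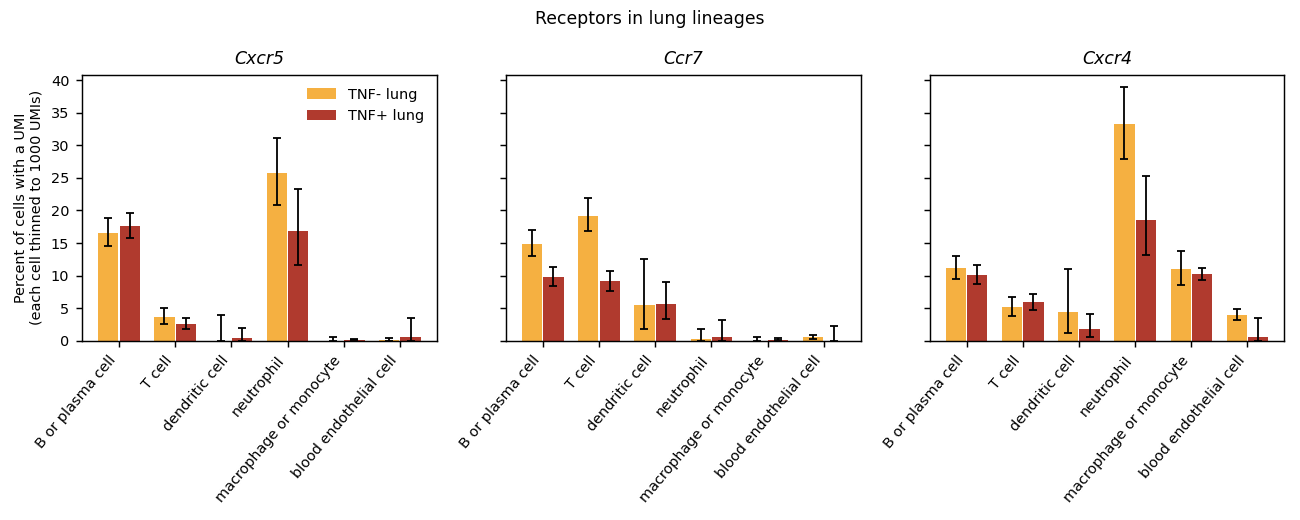
Percent of cells with a UMI of Cxcr5, Ccr7 or Cxcr4 after thinning every cell to 1000 UMIs, in 6 lung lineages; bars are the shares in each library and error bars exact binomial 95% intervals. Ccr7 is found in 19.2% of TNF- and 9.12% of TNF+ T cells, and Cxcr5 in 16.6% and 17.6% of B or plasma cells.

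Cxcr4, the CXCL12 receptor, was higher in the whole TNF+ synovium and lower in TNF+ macrophages or monocytes, the named lineage with the largest share of its UMIs in each library. The whole tissue was at 28.5 CPM (27.3 to 29.7) in TNF- and 87.6 CPM (84.4 to 90.9) in TNF+, a log2 ratio of 1.62 (1.54 to 1.70). Macrophages or monocytes were at 253 CPM (235 to 272) and 160 CPM (154 to 166), a ratio of -0.66 (-0.78 to -0.54), and held 33.6% and 82.9% of the UMIs. Different clusters made up this lineage: one led by Trem2 and Cxcl3 had 8 TNF- and 882 TNF+ cells, the latter at 152 CPM. A cluster led by Cd300e, Treml4 and Adgre4 had 88 TNF- cells at 420 CPM and 187 TNF+ cells at 212 CPM, while the Ccl12 cluster had 75 at 148 CPM and 32 at 246 CPM. T cells were at 119 and 128 CPM (0.10, -0.25 to 0.46) and blood endothelial cells at 25.3 and 25.6 CPM (0.02, -0.41 to 0.45). Dendritic cells were at 72.9 and 123 CPM, a ratio of 0.76 (0.51 to 1.01). None of the 5 synovial lineages measured passed 2-fold, against 7.75% higher and 16.8% lower of all pairs of a gene and a synovial lineage.

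In the lung the whole-tissue level of Cxcr4 was 77.7 CPM (75.3 to 80.05) in TNF- and 90.7 CPM (88.7 to 92.8) in TNF+, a log2 ratio of 0.22 (0.17 to 0.28). Neutrophils were highest, at 478 CPM (444 to 514) in TNF- and 224 CPM (198 to 252) in TNF+, a ratio of -1.09 (-1.30 to -0.89). Neutrophils thus had the highest level of both Cxcr4 and Cxcr5 among lung lineages, and the lower level of both in TNF+. Macrophages or monocytes were at 131 and 114 CPM (-0.20, -0.31 to -0.10), B or plasma cells at 105 and 85.8 CPM, and T cells at 56.7 and 58.4 CPM. Fibroblasts (25 and 17 UMIs) and epithelial cells (19 and 14 UMIs) passed 2-fold in the other direction, at log2 ratios of 2.42 (1.44 to 3.37) and 1.42 (0.31 to 2.49). Their median depths were 5949 and 8623 UMIs in TNF- and 1039.5 and 2508 in TNF+. No background share was measured for these few UMIs, so they are not read as expression by the lineages.

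Ackr3, the CXCL12 scavenger, was lower in the TNF+ library of both tissues. In the whole synovium it was at 320 CPM (316 to 325) in TNF- and 50.3 CPM (47.9 to 52.8) in TNF+, a log2 ratio of -2.67 (-2.74 to -2.60). Fibroblasts held 94.1% and 66.1% of the UMIs and were at 459 CPM (453 to 465) and 188 CPM (177 to 200), a ratio of -1.29 (-1.37 to -1.20). Among fibroblasts the Mrgprg cluster was at 981 CPM in 741 TNF- cells and 645 CPM in 18 TNF+ cells, the Gdf10 cluster at 241 and 259 CPM, and the Mmp13 cluster at 176 CPM in TNF+. The Mrgprg and Gdf10 clusters thus each differed by less than the lineage, and the Mrgprg cluster of high level was nearly missing from the TNF+ library. Levels are not given here for the fibroblast clusters led by Grm8 (1404 TNF- and 58 TNF+ cells) and by Chad (370 and 76).

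Blood endothelial cells of the synovium were at 147 and 49.1 CPM of Ackr3 (-1.58, -1.82 to -1.33) and mural cells at 43.0 and 11.4 CPM (-1.91, -3.02 to -0.96). Within mural cells the Abcc9 cluster had 64 UMIs in TNF- and 4 in TNF+, and the Myh11 cluster 20 and 6. Dendritic cells had 45 UMIs in TNF- and 0 in TNF+, at least 3.13-fold lower over a floor of 3 UMIs. Macrophages or monocytes were at 6.25 and 9.98 CPM, with an interval of the log2 ratio that spanned 0 (-0.03 to 1.47). In all, 4 of 5 synovial lineages were thus at least 2-fold lower, against 16.8% of all pairs of a gene and a synovial lineage. Dendritic cells are among these, but no background share was measured for them, so their UMIs are not read as expression by the lineage.

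In the lung Ackr3 was at 31.2 CPM (29.7 to 32.7) in TNF- and 2.24 CPM (1.93 to 2.58) in TNF+, a log2 ratio of -3.80 (-4.02 to -3.58). Blood endothelial cells held 93.4% of the TNF- UMIs and were at 115 CPM (109 to 120) and 70.2 CPM (57.3 to 85.3), a ratio of -0.71 (-1.01 to -0.42). A blood endothelial cluster led by Slc6a2, Prss23 and Cytl1 was at 726 CPM in 73 TNF- cells and had 1 TNF+ cell. As for Cxcl12, the whole-lung difference was larger than that within endothelium, of which fewer cells were captured. B or plasma cells had 6 and 69 UMIs, 0.596 and 4.03 CPM, of which 38 TNF+ UMIs were in the plasma cell cluster.

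A further 60 genes of lymphoid tissue formation were read for context, in 7 lists, and values are given for TNF- first and TNF+ second. Over the whole synovium 14 of 55 measured were at least 2-fold higher and 7 lower, with a median log2 ratio of -0.01, and over the whole lung 13 of 53 were higher and 12 lower, with a median of 0.31. The shares of all genes given above for whole tissues are the background to these counts. Lineage values below also carry differences in the make-up of a lineage. Of 459 TNF+ synovial fibroblasts, 233 lay in the Mmp13 cluster, which had 2 TNF- cells. Of 1105 TNF+ synovial macrophages or monocytes, 882 lay in the Trem2 cluster, which had 8 TNF- cells. The noncanonical NF-kB list had 0 of 5 past 2-fold in the synovium and 1 of 5 in the lung, Relb, at 53.5 and 109 CPM.

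Among lymphotoxin, BAFF and RANKL genes, 3 of 12 were higher and 2 lower in the synovium, and 3 of 12 higher and 0 lower in the lung. Tnfsf11, which encodes RANKL, an inducer of osteoclasts and lymph nodes, was at 0.0399 CPM (2 UMIs) in TNF- and 40.4 CPM (236 UMIs) in TNF+ synovial fibroblasts, a log2 ratio of 9.98 (8.11 to 13.04). Ltb, a subunit of membrane lymphotoxin, was at 34.7 and 228 CPM in lung NK or innate lymphoid cells, a ratio of 2.71 (2.30 to 3.14). Tnfsf13b, which encodes BAFF, was at 31.7 and 6.52 CPM in lung neutrophils, and Tnfrsf13b, a BAFF receptor, at 22.7 and 2.76 CPM in synovial dendritic cells.

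Of 10 homing adhesion molecules, 2 of 9 measured were higher and 1 lower in the synovium, and 2 of 8 higher and 3 lower in the lung. Glycam1, a mucin-like glycoprotein of high endothelial venules, had 189 UMIs in the TNF+ and 0 in the TNF- synovium, at least 145-fold higher over a floor of 3 UMIs. Vcam1, which holds leukocytes through the integrin chain encoded by Itga4, was at 32.9 and 297 CPM in synovial fibroblasts (3.17, 3.08 to 3.27) and at 36.9 and 205 CPM in lung blood endothelial cells (2.48, 2.26 to 2.69). Pdpn, the podoplanin of lymphatic and reticular cells, was at 33.3 and 455 CPM in synovial macrophages or monocytes and at 14.9 and 2.55 CPM in the whole lung. Its receptor Clec1b, a platelet gene, was at 4.88 and 0.775 CPM in lung T cells. Itga4 was at 16.3 and 93.8 CPM in lung fibroblasts, below the 341 and 892 CPM of the whole lung.

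Decoy receptors also differed. Ackr1, the Duffy antigen receptor of venules, was at 3.86 and 65.8 CPM in synovial blood endothelial cells, a log2 ratio of 4.09 (3.29 to 5.02). It was lower in TNF+ synovial fibroblasts, at 22.6 and 7.70 CPM, which held 1132 of the 1177 TNF- UMIs. The whole synovium was at 15.4 and 10.0 CPM of Ackr1. Ackr2, which scavenges inflammatory chemokines, was lower in both tissues, at 8.02 and 0.605 CPM in the synovium and 15.3 and 0.628 CPM in the lung. Ackr4, which scavenges CCL19 and CCL21, was at 8.31 and 1.16 CPM in the lung. Ccrl2, a chemerin-binding receptor, was at 11.3 and 88.9 CPM in lung fibroblasts and at 30.8 and 72.3 CPM in the whole lung. Decoy receptors thus moved in both directions, and of the 4 listed 1 was higher and 1 lower in the synovium and 2 higher and 2 lower in the lung.

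Of the oxysterol and sphingosine genes, which position B cells and release lymphocytes, 3 of 8 were higher and 0 lower in the synovium, and 0 of 8 higher and 4 lower in the lung. S1pr1, Spns2 and Sphk1 were at 0.499, 0.499 and 7.34 CPM in TNF- and at 5.65, 5.31 and 59.4 CPM in TNF+ synovial fibroblasts. In the whole lung Spns2, a sphingosine-1-phosphate exporter, was at 51.6 and 4.37 CPM, and Sphk1 at 1.90 and 0.213 CPM. Ch25h and Cyp7b1, which make oxysterol ligands of EBI2, were at 4.68 and 27.5 CPM and at 2.71 and 20.7 CPM in lung blood endothelial cells, while Ch25h was at 26.7 and 0.865 CPM in synovial macrophages or monocytes. Among inducers of lymphoid stroma, Il7r was at 11.5 and 138 CPM in synovial macrophages or monocytes, and Il13, a type 2 cytokine, had 316 and 2 UMIs in the whole synovium.

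The remaining B and T zone chemokines included inflammatory ones, with 4 of 11 higher and 2 lower in the synovium and 3 of 10 higher and 2 lower in the lung. Ccl20, the CCR6 ligand, had 65 UMIs in TNF+ and 0 in TNF- synovial fibroblasts, at least 186-fold higher over the floor. Its receptor Ccr6 was at 0.236 and 1.33 CPM in the whole synovium. Cxcl10, a CXCR3 ligand, was at 132 and 6.90 CPM in synovial dendritic cells and at 0.627 (2 UMIs) and 119 CPM in lung fibroblasts. Other synovial lineages went both ways for Cxcl10, with blood endothelial cells at 47.8 and 221 CPM and macrophages or monocytes at 60.7 and 13.4 CPM. The whole synovium was at 66.7 and 56.2 CPM of Cxcl10. Cxcl9, another CXCR3 ligand, was at 68.8 and 11.7 CPM in synovial dendritic cells and at 53.3 and 5.21 CPM in lung macrophages or monocytes. It was higher in TNF+ over the whole synovium, at 25.8 and 56.8 CPM, and in synovial fibroblasts, at 18.2 and 106 CPM. Cxcl14 was at 34.2 and 2.29 CPM in the whole lung and at 24.6 and 0.690 CPM in synovial dendritic cells. Ccl17, a CCR4 ligand, was at 1.04 (3 UMIs) and 12.4 CPM in synovial macrophages or monocytes and at 0.217 (2 UMIs) and 3.66 CPM in lung T cells. Cxcl16 was at 1.95 and 10.3 CPM in lung T cells, and its receptor Cxcr6 at 0.289 (2 UMIs) and 2.14 CPM in lung macrophages or monocytes. No background share was measured for Clec1b, Ccl17 and Cxcl16 in lung T cells or for Cxcr6 in lung macrophages or monocytes. Nor was it measured for Itga4 and Ccrl2 in lung fibroblasts. All are given as levels only and not read as expression by the lineage. The synovial dendritic lineage held different cells in the 2 libraries. Of its cells, 42 of 92 TNF+ and 1 of 376 TNF- lay in the sub-cluster led by Mucl1, Slc6a20a and Cxcl3. Another sub-cluster had 47 TNF- cells and 1 TNF+ cell.

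The genes most like each member were found by Pearson correlation of log2(CPM + 1) over 42 pairs of library and lineage, among 17804 genes. The pairs share 4 libraries, and lymphatic cells, under 50 in each library, were not among them. Cxcl13 was most like Ccl8 (r = 0.96), Marco (0.91) and Pla2g2d (0.90). The low level of Cxcl13 in every lineage of the TNF+ lung is part of these correlations, and how large a part was not tested. Marco is a scavenger receptor of macrophages. Ccl19 was most like Mark1 (0.87), Speg (0.87) and Prrx1 (0.86), and Cxcl12 most like Fat4 (0.93), Msx1 (0.92) and Pdgfd (0.91). Ackr3 was most like Fbln2 (0.85), Cdr2l (0.82) and Cd34 (0.81), of which Fbln2 encodes a matrix protein and Cd34 marks stromal and vascular cells. Ccr7 was most like Btla (0.79), Ankrd55 (0.77) and P2ry10 (0.77), of which Btla is a lymphocyte receptor, and Cxcr4 most like Cklf (0.77), Stk17b (0.75) and Grk2 (0.74). For Cxcr5 the nearest were Gm47230 (0.83), Gm11342 (0.82) and Gm43388 (0.81), and for Ccl21a Disp2 (0.74), 2810030D12Rik (0.72) and Gchfr (0.72).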

How the data were processed

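UMI counts per gene and barcode were deposited by the authors without normalization, as made by Cell Ranger 7.0.1 on the 10x mouse reference mm10 (GRCm38), which by default counts introns too; libraries came from the Chromium 3′ kit. The TNF- and TNF+ libraries of each tissue, 1 per group, were compared. No test, p-value or standard error is given. The members, the lists and the rules were chosen with earlier results of these data known.

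Kept cells had from 200 to 5000 genes and no more than 20% of UMIs from mitochondrial genes, the study's limits. The files held more barcodes than the captured cells the study states for lung and fewer for the TNF+ synovium. The libraries of a tissue were clustered together on 2000 variable genes, with members and pathway genes left out, 30 principal components, 20 neighbours and Leiden resolution 0.8 (leidenalg 0.10.2, igraph 0.11.9, scikit-learn 1.9.0), without batch integration. Clusters were named from 339 markers of 24 types (at least 5 markers, 2-fold above other clusters, in at least 10% of cells), with 4 of 29 synovial and 1 of 36 lung clusters unnamed. The dendritic cell lineage was sub-clustered: 142 of 468 synovial and 162 of 393 lung cells lay in sub-clusters named for another type or unnamed, and they were kept in the lineage. Doublets were not removed beyond the limit on genes.

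UMIs were summed per library or lineage (at least 50 cells in each library) and expressed per 1000000 UMIs of all genes (CPM), with exact Poisson intervals. Shares carry exact Clopper-Pearson intervals and log2 ratios conditional binomial intervals, at 95% and for counting error only. A count of 0 was replaced by a floor of 3 UMIs, which gives a lower bound. Called means at least 20 UMIs over both libraries and past 2-fold. For shares of cells, cells were thinned to 1000 UMIs, which dropped the cells below that depth. The interval code was tested on simulated data with known ratios.

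Of the pathway list, at most 20 genes per tissue were taken by size: at least 50 UMIs and past 2-fold in the whole tissue or a compared lineage, the largest first, at the unit where each was largest. Relb, and the further synovial units given for Cxcl9, Cxcl10 and Ackr1, were named after their values were seen. The values of 1 gene taken by this rule are not reported here. Likeness used genes with at least 100 UMIs and a pseudocount of 1. Alternatives were no cell filter, a stricter filter (at least 500 genes, at most 10% mitochondrial UMIs), removal of high doublet scores (0.8% of cells per 1000 barcodes), median-of-ratios scaling, cells weighted equally, UMIs per cell, minima of 100 UMIs and 1 UMI, resolution 1.6, each library clustered by itself, and clusters of 1 library left out. Analyses used Python 3.11.15, numpy 2.4.6, pandas 2.3.3 and scipy 1.17.1. Promoter bases came from RefSeq.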

Additional observations from a re-analysis of the deposited data

Results flagged for a closer look

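For 4 members the whole-tissue difference between TNF+ and TNF- cells had opposite signs in the 2 tissues. The log2 ratio of the lung minus that of the synovium was -2.45 for Ccl19, -5.01 for Ccl21a, -1.74 for Ccr7 and -3.55 for Cxcl12. With 1 library per group this difference was not tested, and the sign in the lung depended on the processing for Ccl19 and for Ccl21a, whose lung log2 ratio was 0.83 with high doublet scores removed in place of -3.81.

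Barcodes that the cell limits removed also held members, of which those named next were at a higher level than in the removed barcodes of the TNF- library of the same tissue. In the TNF+ synovium they held Ccl19 at 45.6 CPM (15.6 CPM in TNF-), Ccl21a at 443 CPM (21.9 CPM) and Cxcl12 at 261 CPM (119 CPM). In the TNF+ lung they held Cxcl13 at 1198 CPM (2.15 CPM in TNF-) and Ccl19 at 9.01 CPM (3.36 CPM). Other members were lower in the removed TNF+ barcodes, such as synovial Ackr3 at 126 CPM (340 CPM in TNF-) and Cxcl13 at 3.70 CPM (21.0 CPM), and lung Ccl21a at 7.72 CPM (135 CPM) and Cxcl12 at 42.8 CPM (92.6 CPM). Of the removed Ccl19 UMIs of the TNF+ lung, 87.1% were in 40 barcodes nearest to fibroblasts. Whether these barcodes hold 1 cell or several was not tested.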

How the results depend on the processing

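The numbers of members past 2-fold moved by over 1.5 times under these alternatives: in the whole synovium 2 in place of 4 with each cell weighted equally; within synovial lineages 8 with a minimum of 100 UMIs and 11 without clusters of 1 library, in place of 19; in the whole lung 3 in place of 6 with high doublet scores removed; and within lung lineages 16 with a minimum of 100 UMIs and 18 without Cxcl13, in place of 30. Leaving out Cxcl13 was chosen after seeing the data, and it lowered the lung pairs measured from 54 to 42. A minimum of 100 UMIs can only lower the number measured, and leaving out clusters can lower it too. The smaller counts under these 3 alternatives are therefore not read as a change in the members. Shares of all genes under the alternatives are not given here.

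In all, 10 single values changed sign, as log2 ratios. With high doublet scores removed, Ccr7 in synovial blood endothelial cells was -0.30, Ccl19 in the whole lung 0.79, Ccl21a in the whole lung 0.83 and Ccl21a in lung blood endothelial cells 1.05. With no filter on cells, Ccl21a in synovial fibroblasts was -2.93, Ccl19 in the whole lung 0.50 and Ackr3 in lung fibroblasts 0.28. Cxcl12 in synovial fibroblasts was -0.33 without clusters of 1 library, Ccl19 in the whole lung 0.48 with each cell weighted equally, and Ccl21a in lung blood endothelial cells 6.78 with each library clustered by itself. The cause was not tested. Of the other single values, 546 kept their direction and size within counting error and 173 moved further without changing sign. No paired analysis was possible because each group had 1 library. Low counts limit Cxcl13 in the TNF- lung (71 UMIs), Ccl19 in the lung (206 and 152) and Cxcr5 in the synovium (188 and 55).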
